A study of Rattus norvegicus with 6 samples.

Results

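Netrins and their receptors were examined in primary rat chondrocytes exposed to retinoic acid. The family was taken as 9 genes chosen by symbol, the ligands Ntn1, Ntn3 and Ntn4 and the receptors Unc5a, Unc5b, Unc5c, Unc5d, Dcc and Neo1, and all 9 were found among the 18923 genes of the files, each under 1 identifier. Chondrocytes had been isolated from cartilage of wild-type female Sprague-Dawley rats that were 24 h old and were used at passage 1 or 2. The CON group (3 samples) was cultured for 24 h in high-glucose DMEM with 10% FBS and 1% penicillin-streptomycin, and the RA group (3 samples) in the same medium with 1 μM all-trans retinoic acid, the hormone-like form of vitamin A whose receptors are transcription factors. The sequenced RNA was polyadenylated, and the deposited values are raw read counts per gene and FPKM, which scales the reads to gene length and to the total of the library. The samples were described as independent, but whether they came from separate animals was not stated, so the error given here is the spread between these samples.

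Netrins are secreted proteins related to laminins, first studied as cues that guide growing axons. DCC and its relative neogenin mediate attraction and adhesion to netrin, whereas UNC5 receptors mediate repulsion, and DCC and UNC5 proteins are also known as dependence receptors, which can promote cell death when no ligand is bound. Neogenin binds repulsive guidance molecules too and takes part in BMP signalling in cartilage, and UNC5B is known as a netrin-1 receptor on endothelial cells and osteoclast precursors.

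The most abundant receptor transcripts, Neo1 and Unc5b, are shown with the sequence in front of their start sites, because they made up most of the receptor FPKM in both groups. RefSeq windows of 250 bases before to 50 bases after the gene start (rat build GRCr8) were matched by symbol for 6 of the 9 genes: Ntn3, Ntn4, Unc5a, Unc5b, Dcc and Neo1. The 250 bases before the start are printed 5′ to 3′ on the strand of the gene. Capitals mark the GC box GGGCGG on either strand, the core of a site bound by Sp-family factors.
Neo1, chr8:68322153-68322402, minus strand: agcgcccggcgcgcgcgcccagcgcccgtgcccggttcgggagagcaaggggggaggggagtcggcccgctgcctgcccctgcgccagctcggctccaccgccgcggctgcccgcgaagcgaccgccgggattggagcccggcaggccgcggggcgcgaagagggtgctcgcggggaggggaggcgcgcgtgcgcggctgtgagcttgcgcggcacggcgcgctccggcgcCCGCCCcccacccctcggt
Unc5b, chr20:29307271-29307520, minus strand: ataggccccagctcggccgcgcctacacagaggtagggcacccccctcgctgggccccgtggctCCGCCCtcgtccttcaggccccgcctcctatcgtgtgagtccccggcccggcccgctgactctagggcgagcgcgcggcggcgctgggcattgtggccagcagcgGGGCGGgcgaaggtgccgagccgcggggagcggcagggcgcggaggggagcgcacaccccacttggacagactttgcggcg

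Both windows are rich in CpG dinucleotides. The 300-base window of Neo1 held 50 CpG and had a GC content of 81.0%, higher than 99.3% of the 33469 rat windows, and that of Unc5b held 37 CpG and had a GC content of 74.3%. The window of Dcc held 13 CpG at a GC content of 53.7%, close to the median of 51.7% over all windows. A GC box was present in 4 of the 6 windows, those of Ntn4, Unc5a, Unc5b and Neo1, and in 33.1% of all rat windows. The half-site AGGTCA, to which retinoic acid receptors bind, was searched on both strands and was not in any of the 6 windows, against 16.2% of all windows. Its direct repeats with a spacing of 2 and of 5 bases were found in 0.012% and 0.009% of all windows and in none of the 6. No window was matched for Ntn1, Unc5c and Unc5d, so they were not searched. These matches describe only the letters of the 6 windows.

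The libraries held between 30170909 and 38007486 counted reads in CON and between 29370025 and 30952882 in RA. CON sample 1 stood apart from the other CON samples. Its root mean square difference in log2 CPM (counts scaled to the library total) was 0.459 from CON sample 2 and 0.490 from CON sample 3, whereas CON samples 2 and 3 differed by 0.336 and the RA samples by 0.355 to 0.358. Values without CON sample 1 are therefore given for the tested members and for the DEGs among their partners. The treatment was checked on retinoid response genes, of which Cyp26a1, Cyp26c1, Rarb, Dhrs3 and Tgm2 were higher in RA, as was Cyp26b1, a retinoic acid hydroxylase gene, whose FPKM was 1.51 ± 0.187 without and 9.52 ± 0.916 with RA (SD, n = 3 each), and Rarres1 was lower. All 10 chondrocyte markers were expressed. Their summed FPKM was 8030 to 9928 in CON and 5034 to 5364 in RA, and 9 of them were differentially expressed genes (DEGs), all lower in RA (Col2a1, Acan, Col9a1, Col11a1, Matn1, Matn3, Hapln1, Comp and Cnmd).

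A gene was called a DEG if edgeR's quasi-likelihood test gave it an adjusted p (Benjamini-Hochberg) under 0.05 and its log2 fold change (log2FC, RA over CON) was above 0.58 or below -0.58. Of the 13438 genes tested, 667 were DEGs (4.96%), with 359 higher in RA (2.67%) and 308 lower (2.29%). Of the 9 netrin and receptor genes, 8 had enough reads to be tested and 1, Ntn1, was a DEG. This family was chosen with the RA and CON values known, so the differences of its members are given as a description with their SEs and without p-values, and nothing is read from the count. Ntn1 passed the filter through RA, since only 2 of its CON samples reached the minimum. Dcc passed it through CON, with 2 of its RA samples at the minimum. Passing the filter is therefore not independent of the difference for these genes. The count was also 1 without CON sample 1 and 2 without CON sample 2, where Neo1 reached a log2FC of -0.58.

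Ntn1 (ENSRNOG00000003947) encodes netrin-1, the founding ligand of DCC and UNC5 receptors. Its counts were 7, 20 and 32 in CON samples 1, 2 and 3, and 154, 135 and 113 in RA samples 1, 2 and 3. In FPKM these were 0.123, 0.357 and 0.454 in CON and 2.80, 2.48 and 1.97 in RA. All 3 RA samples were above all 3 CON samples, and the gap between the groups was wider than the spread within either. The mean FPKM was 7.75 times as high in RA, and the log2FC on normalized counts was 2.91 (SE 0.375). Without CON sample 1, where Ntn1 was lowest, the log2FC was 2.54 (SE 0.247), and the largest value with a sample left out was 3.32, without CON sample 3. Even in RA the level of Ntn1 was modest, 2.41 ± 0.418 FPKM (SD, n = 3).

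Ntn3 (ENSRNOG00000006970), a close relative of Ntn1, had FPKM of 0.858, 1.98 and 3.23 in CON and 2.05, 2.08 and 2.26 in RA. The RA samples lay close together and inside the wide CON range, and the log2FC was 0.05 (SE 0.389). Its sign rested on CON sample 1, without which it was -0.32, while without CON sample 3 it was 0.58. Ntn4 (ENSRNOG00000005573), which encodes a netrin that is more like laminin β chains and sits in basement membranes, had FPKM of 0.872, 1.35 and 1.01 in CON and 1.22, 1.54 and 1.46 in RA. The groups overlapped, since CON sample 2 was above RA sample 1, and the log2FC was 0.37 (SE 0.211), or 0.24 without CON sample 1. Each of the 3 netrins had its lowest value of all samples in CON sample 1.

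**Figure D1:**
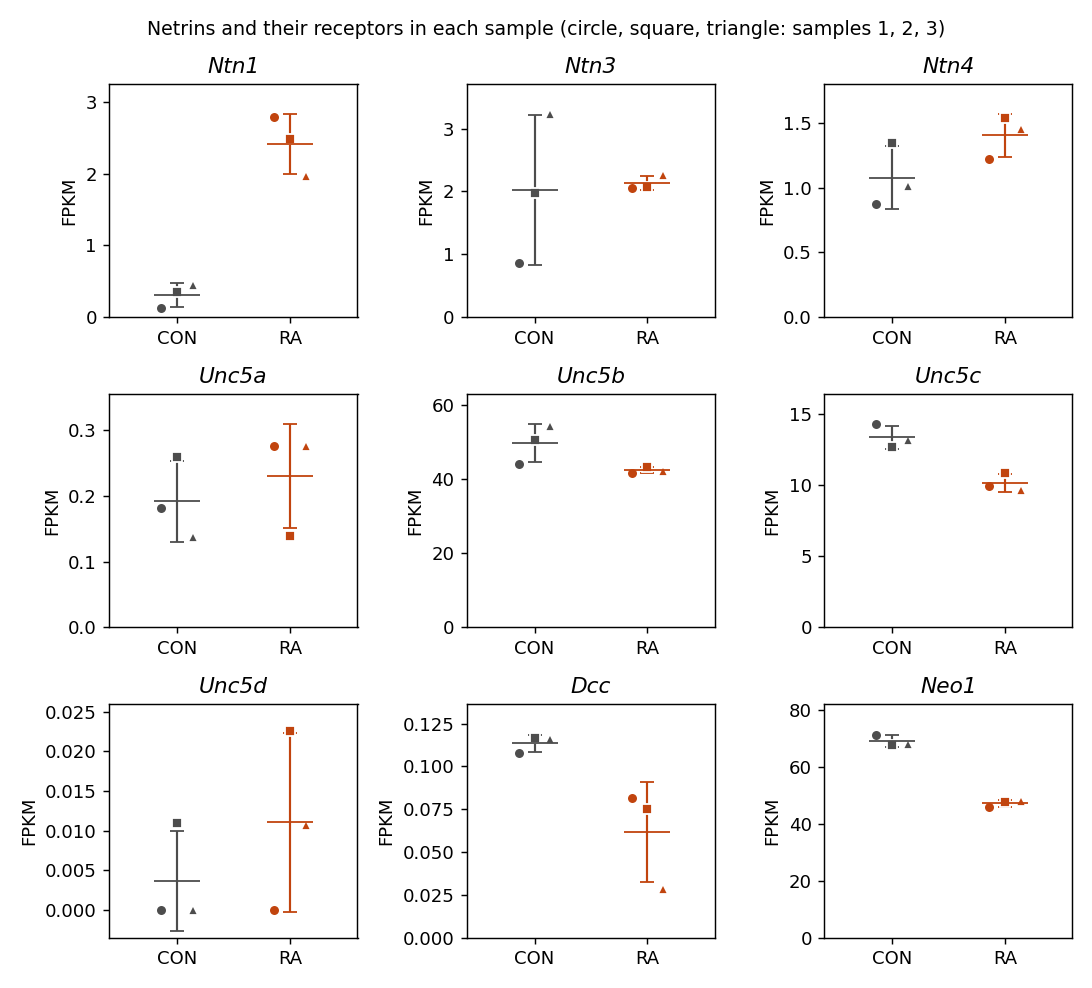
FPKM (vertical axes, linear, a separate scale for each gene) of the 9 genes in the CON and RA samples, with points for single samples and bars for the mean ± SD (n = 3 each). Ntn1 is higher in every RA sample, Neo1, Unc5b, Unc5c and Dcc are lower in every RA sample than in any CON sample, and the other 4 genes overlap.

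The make-up of the netrin transcripts therefore differed between the groups. Ntn1 supplied 6.63%, 9.70% and 9.67% of the summed FPKM of the 3 netrins in CON samples 1, 2 and 3, and 46.1%, 40.7% and 34.6% in RA samples 1, 2 and 3. The share of Ntn3 was 56.3% ± 11.5 in CON and 35.9% ± 3.36 in RA (n = 3 each, SD), and that of Ntn4 was 35.0% ± 12.8 and 23.6% ± 3.09. The summed netrin FPKM was 1.85, 3.68 and 4.69 in CON and 6.07, 6.09 and 5.69 in RA. All RA sums were above the CON sums.

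**Figure D2:**
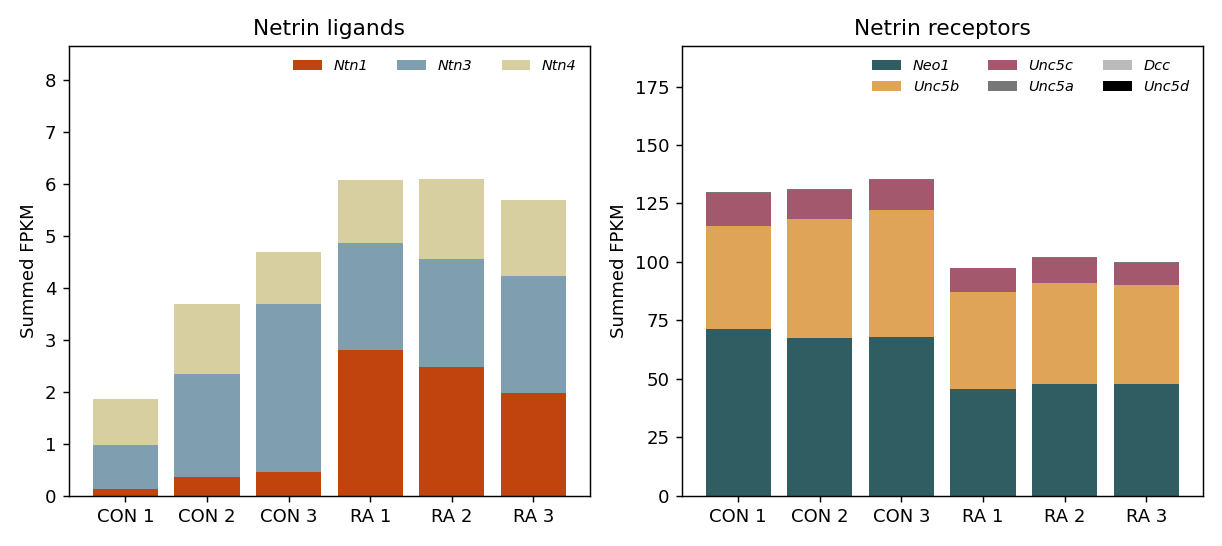
Stacked FPKM of the 3 netrins (left) and of the 6 receptors (right) in each sample, with the summed FPKM on the vertical axes, which start at 0. The netrin bars are 1.85 to 4.69 high in CON and 5.69 to 6.09 in RA, with a larger Ntn1 segment in RA, and the receptor bars are 130 to 135 high in CON and 97.6 to 102 in RA, nearly all of it Neo1, Unc5b and Unc5c.

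Neo1 (ENSRNOG00000006490), which encodes neogenin, was the most abundant member in both groups. Its FPKM was 71.3, 67.6 and 68.0 in CON and 45.8, 47.8 and 47.8 in RA. The groups did not overlap, and the lowest CON sample was well above the highest RA sample. The log2FC was -0.56 (SE 0.0556), just short of the threshold of 0.58, and without CON sample 1 it was -0.54. Leaving out single samples gave values from -0.58 to -0.53.

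Unc5b (ENSRNOG00000000567) followed at 44.0, 50.5 and 54.1 FPKM in CON and 41.5, 43.2 and 42.1 in RA. The groups did not overlap, but CON sample 1 was close to the RA samples. The log2FC was -0.24 (SE 0.0835), or -0.32 without CON sample 1 and -0.16 without CON sample 3. Unc5c (ENSRNOG00000029071), which encodes another UNC5 receptor, had FPKM of 14.3, 12.7 and 13.1 in CON and 9.90, 10.8 and 9.68 in RA. Again no RA sample reached a CON sample, with a log2FC of -0.41 (SE 0.0728). Without CON sample 1 it was -0.37.

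The remaining receptors were near the limit of detection. Dcc (ENSRNOG00000033099) had 15, 16 and 20 reads in CON and 11, 10 and 4 in RA, or 0.108, 0.117 and 0.116 FPKM against 0.0817, 0.0750 and 0.0285. Every CON sample was above every RA sample, yet at this depth the log2FC of -0.89 had a SE of 0.420, and it was -0.55 without RA sample 3 and -0.93 without CON sample 1. Unc5a (ENSRNOG00000059840) had 15, 21 and 14 reads in CON and 22, 11 and 23 in RA. Its groups overlapped in part, since RA samples 1 and 3 were above the CON samples and RA sample 2 was below CON samples 1 and 2, with a log2FC of 0.26 (SE 0.390), or 0.23 without CON sample 1. Unc5d (ENSRNOG00000011858) had 1 read in the CON samples together and 3 in the RA samples together. A count of 0 in a sample allows up to 3 reads, so no fold change was computed for Unc5d. In GRCr8 the spans of 5 members overlap other genes. That of Unc5a overlaps the protein-coding gene Hk3, that of Unc5c a long non-coding RNA gene, that of Dcc long non-coding RNA genes and a pseudogene, that of Unc5d a tRNA gene and a pseudogene, and that of Ntn4 a pseudogene. Only whole gene spans were compared, without exons, and the strand setting of the counting is not given in the sources used here. Whether reads of the overlapping genes entered the counts of these 5 members was not tested.

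The receptor transcripts thus came almost wholly from Neo1, Unc5b and Unc5c. The summed FPKM of the 6 receptors was 130, 131 and 135 in CON and 97.6, 102 and 99.96 in RA, without overlap. Neo1 made up 52.2% ± 2.43 of it in CON and 47.2% ± 0.564 in RA (n = 3 each, SD), Unc5b 37.4% ± 3.16 and 42.4% ± 0.203, and Unc5c 10.1% ± 0.750 and 10.2% ± 0.471. The ratio of Unc5b plus Unc5c to Neo1 was 0.817, 0.934 and 0.989 in CON and 1.12, 1.13 and 1.08 in RA. With more netrin and less receptor transcript, the ratio of summed receptor to summed netrin FPKM was 70.04, 35.6 and 28.9 in CON and 16.1, 16.8 and 17.6 in RA. CON sample 1, with the fewest netrin reads, had the highest of these ratios.

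Of the 8 tested members, Ntn1, Neo1, Unc5b, Unc5c and Dcc (5 genes) did not overlap between the groups in normalized counts, and neither did 31.9% of all tested genes. In bulk samples, fewer cells of a type and less RNA per cell cannot be told apart. The lower receptor levels stood beside the lower chondrocyte markers given above. They also stood beside a list of 9 neuron and glia markers, whose summed FPKM was 8.92 to 10.1 in CON and 5.92 to 7.12 in RA. Of these 9 markers, 4 were tested and 1 was a DEG, Gfap, which was lower in RA, while 2 were below 0.1 FPKM in every sample. The endothelial list, which stands for cells known to carry UNC5B, had a summed FPKM of 5.46 to 8.02 in CON and 6.18 to 6.83 in RA over 5 genes, nearly all of it Egfl7. Of its defining markers Emcn was at 0 in every sample, Cdh5 and Kdr were below 0.1 FPKM, and Tek was below 0.1 FPKM except in CON sample 1 (0.164) and RA sample 1 (0.118). The symbols Pecam1 and Tie1 were not found among the deposited gene names. The summed FPKM of the fibroblast list was 3730 to 4925 in CON and 4814 to 5070 in RA. That of the muscle list was 4.72 to 6.00 and 6.96 to 7.87, and those of the osteoblast list (12.0 to 13.6 and 12.5 to 13.3) and the macrophage list (43.0 to 47.5 and 44.5 to 47.5) overlapped. Most of the muscle sum was Des (mean 5.09 FPKM in CON and 6.72 in RA), while Myh3 was below 0.1 FPKM in every sample. The macrophage sum was mostly Ctsk and Cd14, with Adgre1 and Ptprc below 0.1 FPKM in every sample. Map2 and Gfap made up most of the neuron and glia sum. These sums are therefore not measures of the amounts of those cells. The markers within a list did not all move one way. Of the 7 fibroblast markers, 1 was a DEG, Scara5, which was lower in RA (log2FC -0.95), while 4 had a positive log2FC, among them Pdgfra at 0.44. Of the 5 osteoblast markers tested, 1 was a DEG, Ibsp, which was higher (log2FC 1.47), while Alpl had a log2FC of -0.42. Of the 2 muscle markers tested, 1 was a DEG, Myod1, which was higher (log2FC 1.93). Myod1 was scarce, however, with a mean FPKM of 0.0932 without RA that reached only 0.366 with it. For comparison with these marker lists, the share of DEGs among all tested genes was 4.96%. The part of these other cells in the netrin results was not tested.

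Compared per length, the order of the members was nearly the same in both groups. In CON it ran from Neo1 (69.0 ± 2.00 FPKM) through Unc5b (49.5 ± 5.13), Unc5c (13.4 ± 0.806), Ntn3 (2.02 ± 1.19), Ntn4 (1.08 ± 0.244), Ntn1 (0.311 ± 0.170), Unc5a (0.192 ± 0.0615) and Dcc (0.114 ± 0.00508) to Unc5d (SD, n = 3 each). The ranges of Ntn3 and Ntn4 overlapped, as did those of Ntn1 and Unc5a. In RA, Ntn1 moved up to the fourth place, ahead of Ntn3 (2.13 ± 0.115 FPKM) and Ntn4 (1.40 ± 0.165), though the ranges of Ntn1 and Ntn3 overlapped and Ntn1 was the higher in 2 of 3 samples. Neo1 and Unc5b were closer to each other in RA (47.1 ± 1.17 and 42.3 ± 0.840 FPKM) than in CON and did not overlap.

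The genes whose centred log2 CPM profile over the 6 samples was nearest to that of Ntn1 were Etv4, which encodes an ETS transcription factor, at a root mean square difference of 0.349, Krt7, a keratin gene, at 0.396, the death-associated kinase gene Dapk2 at 0.450, Cyp26b1 at 0.513 and Gchfr at 0.519. The median difference over all tested genes was 1.57. For Neo1, the nearest were Cthrc1 at 0.0310, Glt8d2 at 0.0360, Aldh1l2 at 0.0363, Col11a1, a cartilage collagen gene, at 0.0391 and Foxo1, a transcription factor gene, at 0.0404, with a median of 0.324 over all tested genes. These genes share the group difference of their target by construction, so the likeness is a description.

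Partners of netrins and their receptors outside the family were taken from a list of 17 genes, of which 14 were tested. Of these, 4 were DEGs (28.6%, against 4.96% of all tested genes), 3 higher and 1 lower in RA, and the median log2FC was -0.015, against -0.0057 over all tested genes. Earlier results of these data, including those of the integrins, were known when the list was made. Itga3, the integrin α3 chain, which binds laminins and for which netrin-1 binding on epithelial cells has been described, had FPKM of 12.2, 15.2 and 14.7 in CON and 53.6, 52.2 and 56.7 in RA. The RA samples were far above the CON samples, with a log2FC of 1.93 (SE 0.0923, adjusted p = 1.56e-05, edgeR), or 1.84 without CON sample 1. Draxin, a secreted antagonist that binds both DCC and netrin-1, had FPKM of 4.08, 5.73 and 5.68 in CON and 11.8, 12.3 and 11.3 in RA. It rose with a log2FC of 1.18 (SE 0.151, adjusted p = 0.00192, edgeR), and remained a DEG whichever sample was left out, at 1.03 to 1.26.

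Flrt3, a membrane protein that binds UNC5 receptors, had FPKM of 4.63, 3.67 and 3.20 in CON and 2.26, 2.04 and 2.29 in RA. It fell by 0.81 on the log2 scale (SE 0.145, adjusted p = 0.00947, edgeR) and was no longer a DEG without RA sample 2, where the log2FC was -0.77. Without CON sample 1 it was -0.66. Itga6, the integrin α6 chain, rose with a log2FC of 0.59 (SE 0.0585, adjusted p = 5.14e-04, edgeR). It was close to the threshold and fell short of it when CON sample 2, CON sample 3 or RA sample 1 was left out, at 0.58, 0.56 and 0.57, and with upper-quartile scaling of all samples, at 0.58, which left 3 DEGs among the partners. Without CON sample 1 it was 0.63. Itgb4, the partner of α6 in the integrin described for netrin-1, had an FPKM of 0.218 ± 0.0836 in the CON group and of 0.220 ± 0.0721 in the RA group (SD, n = 3). Itgb1, the integrin β1 chain, was far more abundant, at 362 ± 30.9 FPKM in CON and 440 ± 19.7 in RA. It was not a DEG, with a log2FC of 0.27 (SE 0.0664, adjusted p = 0.0399, edgeR). With Itgb1, 5 of the 14 tested partners had an adjusted p below 0.05, against 9.82% of all tested genes. The neogenin ligands Rgma and Rgmb were not DEGs, at 17.0 ± 3.14 and 18.4 ± 2.08 FPKM in CON and 14.1 ± 1.37 and 18.4 ± 1.21 in RA.

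**Figure D3:**
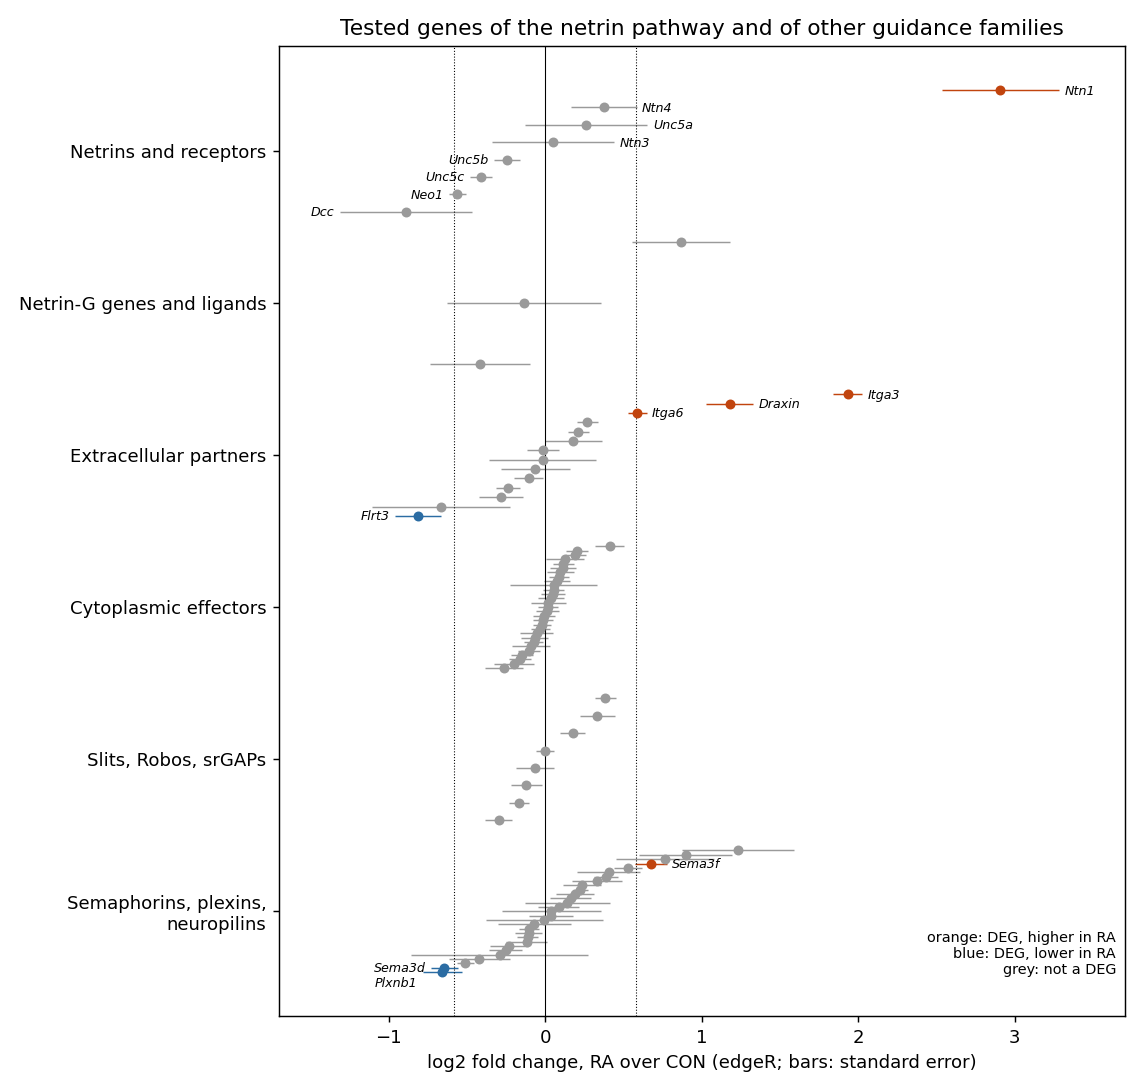
Log2FC of RA over CON (horizontal axis, with the SE) for every tested gene of the netrin family, of its partners and effectors and of other guidance families, each point a gene. Dotted lines mark 0.58 in either direction. Ntn1 at 2.91 and Itga3 at 1.93 lie farthest to the right, while the cytoplasmic effectors lie between -0.26 and 0.41.

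The more distant relatives were the secreted netrin gene Ntn5, the netrin-G genes Ntng1 and Ntng2, and Lrrc4, Lrrc4b and Lrrc4c of the netrin-G ligand (NGL) family. Of these 6, 3 were tested, and no DEG was found by edgeR, DESeq2 or limma. In edgeR, 1 gene had an unadjusted p below 0.05, which 24% of all tested genes had. Ntng2 had a mean FPKM of 0.169 ± 0.0254 in the CON group and of 0.310 ± 0.0685 in the RA group (SD, n = 3), with a log2FC of 0.87 (SE 0.315, adjusted p = 0.139, edgeR). Ntng1 and Lrrc4b had log2FCs of -0.42 (SE 0.322) and -0.14 (SE 0.491). Ntn5 was not tested, with a mean FPKM of 0.0062 in the CON group and 0.0080 in the RA group. The netrin-G genes were thus expressed at a level near that of Unc5a.

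The cytoplasmic proteins through which netrin receptors act on the cytoskeleton and on cell survival were expressed in both groups. Of 34 listed effector genes, 29 were tested, and no DEG was found by edgeR, DESeq2 or limma, with 3 genes at an unadjusted p below 0.05, or 3 of 29 against 24% of all tested genes. The log2FCs ran from -0.26 to 0.41, with a median of 0.02. For 27 of the 29, the 95% interval of the log2FC lay within 0.58 on both sides. The most abundant were the GTPase genes Rhoa (404 ± 38.4 FPKM in CON and 380 ± 5.54 in RA) and Cdc42 (259 ± 50.6 and 284 ± 6.24) and Maged1, which encodes a UNC5A-binding protein (203 ± 11.8 and 195 ± 2.63; SD, n = 3 each). Of all tested genes, 9.82% had an adjusted p below 0.05, with 5.31% higher and 4.5% lower in RA. The single effector below it was Vasp, an actin regulator of the Ena/VASP family. Its log2FC was 0.41 (SE 0.0935, adjusted p = 0.0278, edgeR), with FPKM of 36.7, 46.2 and 45.4 in CON and 56.8, 56.1 and 59.1 in RA.

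**Figure D4:**
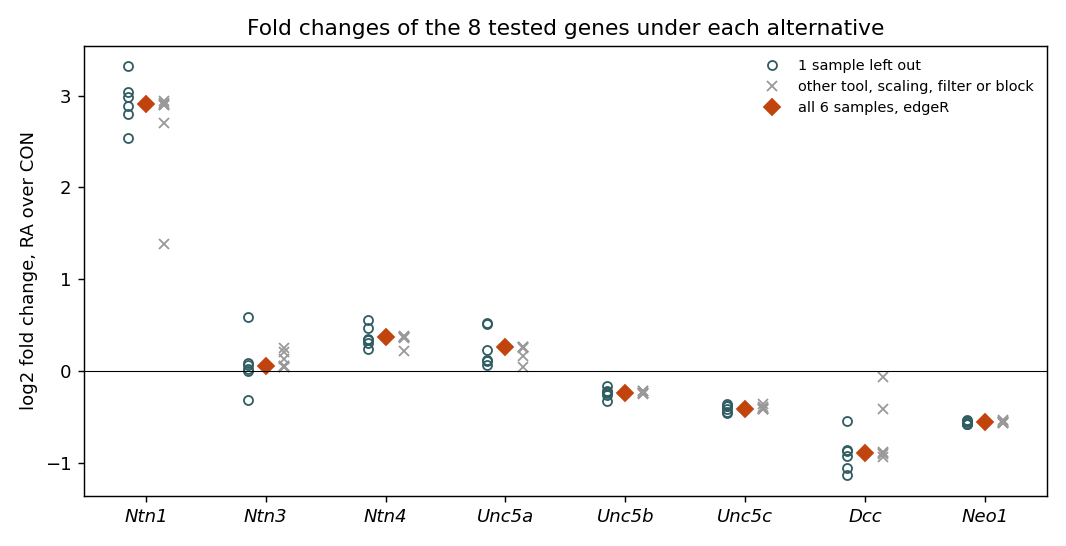
Log2FC of RA over CON (vertical axis) of the 8 tested members with all samples (diamond), with 1 sample left out (circles) and with another tool, scaling, filter or block (crosses). Ntn1 stays above 1 throughout, Neo1, Unc5b, Unc5c and Dcc stay below 0, and Ntn3 crosses 0.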

How the data were processed

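Poly(A) libraries (NEBNext Ultra kit, Illumina HiSeq) of 3 CON and 3 RA samples were compared, grouped and numbered by their titles. The authors deposited for each sample a raw count of reads per gene and an FPKM value for 18923 genes. The FPKM equal the count divided by gene length and by the summed counts of the sample, tested on the files. The submitters' processing notes name HISAT2, HTSeq 0.13.5 and the build Rnor_6.0, without settings, and the use of strand is not given in the sources used here. Counts were tested with edgeR 4.0.16 (R 4.3.3, TMM, filterByExpr with a minimum count of 10, glmQLFit and glmQLFTest, all 6 samples, no covariates). Standard errors were derived from the F statistic. DESeq2 1.42.0 and limma 3.58.1 on log2(FPKM + 0.1) and log2(FPKM + 1) were alternatives, with other scalings and filters, a replicate block and each sample left out in turn. The scripts were tested on simulated data.

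The members and gene lists were chosen with earlier results of these data known. The rule was to name the DEGs of each list outside the family, and up to 3 genes with the highest FPKM where fewer than 3 were DEGs. For the lists of other cell types the DEGs and summed FPKM are given. The genes that made up most of the sum are named for the endothelial, muscle, macrophage, and neuron and glia lists. An item of the retinoid response list is not reported here. Itgb1, Itgb4, Rgma, Rgmb, Ntn5, Vasp, Pdgfra, Alpl, Des, Myh3, Ctsk, Cd14, Adgre1, Ptprc, Map2 and the endothelial markers were chosen with their values seen where they fall outside this rule. Sequences and overlaps of genes come from RefSeq (GRCr8), whose coordinates were not mixed with the counts.

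Total counts lay between 29370025 and 38007486, and a count of 0 allows up to 3 reads, or 0.0789 to 0.102 CPM, for counting error only.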

Additional observations from a re-analysis of the deposited data

How the results depend on the processing

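The log2 fold change of Ntn1 ran from 1.38 (limma on log2(FPKM + 1), whose pseudocount understates low genes) to 3.32 (without CON sample 3). Ntn3 turned to -0.32 without CON sample 1 and was 0.58 without CON sample 3, and the cause was not tested. The other 6 tested members kept their sign under every alternative that gave a value. Unc5a and Dcc gave none with the filter of at least 1 CPM in 3 samples. With no threshold on the fold change, 3 of the 8 tested members were called, against 9.82% of all tested genes. With a sample left out, the number of members that were DEGs was 1 to 2, and that of all genes 480 to 755. Over all genes, the number of DEGs was 434 in limma on log2(FPKM + 1) and 1319 with no fold-change threshold, of which 714 were higher in RA. With no such threshold, 1 of 29 effectors, 1 of 8 Slit and Robo genes and 7 of 29 semaphorin-list genes were called. The share of all tested genes was 9.82%. In limma on log2(FPKM + 1), 1 gene of the semaphorin list was a DEG. CON and RA samples with the same number did not deviate together (correlations of 0.093, -0.012 and 0.012 across genes). The replicate block gave 684 DEGs and again 1 member. Counts of 4 to 32 reads limit what can be said of Dcc, Unc5a and, in CON, Ntn1.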

Other observations

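Slits and semaphorins, other families of guidance cues, were also expressed, and differences between families were not tested. Slits are secreted cues that act through Robo receptors and srGAP proteins. Of 10 listed genes, 8 were tested and no DEG was found by edgeR, DESeq2 or limma, with 4 of the 8 at an unadjusted p below 0.05, against 24% of all tested genes. By the mean over both groups, the most abundant were Srgap2 (16.0 ± 0.240 FPKM in CON and 16.2 ± 0.392 in RA), Robo1 (10.3 ± 0.541 and 9.23 ± 0.0937) and Srgap3 (6.19 ± 0.212 and 8.15 ± 0.302; SD, n = 3 each).

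Semaphorins act through plexins and neuropilins. Of 31 genes, 29 were tested and 3 were DEGs (10.3%, against 4.96% of all tested genes). Sema3f rose with a log2FC of 0.68 (SE 0.101, adjusted p = 0.00425 by edgeR), which was 0.56 and no longer a DEG without CON sample 1. Sema3d fell by 0.64 on the log2 scale (SE 0.0852, adjusted p = 0.00232, edgeR), with -0.58 and no call without that sample. Plxnb1 fell by 0.66 (SE 0.124, adjusted p = 0.0124, edgeR) and lost the call when CON sample 2, RA sample 1 or RA sample 2 was left out, at -0.58, -0.62 and -0.65. Without CON sample 1 it was -0.79.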
